A study of Rattus norvegicus with 8 samples.

Results

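Tight junctions and adherens junctions seal neighbouring cells to each other, and 9 of their genes are described here in rat lung. The genes were taken by exact platform symbol: the claudins Cldn1, Cldn3, Cldn4, Cldn5, Cldn7 and Cldn18, occludin (Ocln), the scaffold gene Tjp1 and the E-cadherin gene Cdh1. They are 9 of 11217 genes that carry a single symbol on the array and are read by 13 of its 20242 probe sets (a probe set is a group of short oligonucleotides against one transcript). RNA came from the dorsal-caudal quadrant of lungs of male Sprague-Dawley rats of 340 to 400 g. 3 samples were from rats ventilated prone and 3 from rats ventilated supine, and 2 control samples were from non-ventilated rats. Both ventilated groups were anesthetized, had a tracheotomy and a jugular cannula, and received a tidal volume of 18 mL per kg at 40 breaths per minute with a positive end-expiratory pressure of 0 cmH2O for up to 3 hours. The titles write SVt for the supine samples and HVt for the prone ones, while the condition given for each of the 6 is a high tidal volume. No label says whether the control rats underwent the surgery, so ventilation and surgery cannot be told apart. The titles name the samples biological replicates, and all p-values measure the spread between these 8 samples.

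Claudins are membrane proteins whose strands set which ions and how much water pass between cells. Cldn18, Cldn3 and Cldn4 are the claudins best known from alveolar epithelium, and Cldn5 is the main claudin of endothelium. Occludin lies in the same strands, ZO-1 (the Tjp1 product) ties them to actin, and E-cadherin holds epithelial cells together just below them. Lung that leaks protein-rich fluid into the air spaces is the hallmark of injury by overdistension, which is why these genes are followed in ventilation studies.

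Lung identity was plain on every array, with the surfactant gene Sftpc between 15.02 and 15.51 and the alveolar type 1 gene Ager between 13.29 and 14.54 on the log2 scale. RNA of supine replicate 3 was degraded: the 3′ GAPDH control probe set exceeded the 5′ one by 8.41 log2 units, and the actin one by 9.10. The remaining 7 arrays ranged from 0.70 to 1.92 for GAPDH and from 3.16 to 4.64 for actin. Array medians lay between 7.77 and 7.95. All values below are log2 expression, and differences are differences of log2 values with the standard error of a limma model fitted to 16896 probe sets on all 8 arrays. The threshold for passing was an adjusted p (Benjamini-Hochberg) under 0.05.

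None of the 9 genes passed in any comparison. This has to be read against the whole array, since only 0.0533% of probe sets passed in prone against control lungs, 0.0533% in supine against control lungs and 0% in supine against prone lungs. With the ventilated groups pooled, as the mean of prone and supine, 0.142% passed. These shares stand for 9, 9, 0 and 24 probe sets, and with the replicate number of the titles as a block limma passed 0 in each of the 4 comparisons (3127, 2854, 1256 and 3344 had an unadjusted p under 0.05). At an unadjusted p under 0.05, 1 of the 9 genes (Cldn3) was lower in prone lungs, where 10% of all probe sets were, and 1 (again Cldn3) was lower in supine lungs, where 8.05% were. Supine against prone, 0 of the 9 reached that level, against 4.09% of all probe sets. In ventilated lungs it was again Cldn3 alone, where 10.6% of all probe sets were lower at that level. Each gene is counted here by its brightest probe set. The dimmest Cldn18 probe set was also lower at that level (limma, unadjusted p = 0.00927 in prone, 0.0277 in supine and 0.0094 in ventilated lungs). Against control lungs, 8 of the 9 prone and 7 of the 9 supine differences were below 0, with medians of -0.48 and -0.41, while 56.5% and 53.8% of all probe sets were below 0 with medians of -0.12 and -0.07. Arrays did not overlap and were lower for 4 of the 9 genes in prone lungs (27.7% of all probe sets) and for 3 in supine lungs (21.8%), where 1 more, Cldn4, was higher (20%). The prone and supine comparisons share their controls.

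**Figure D1:**
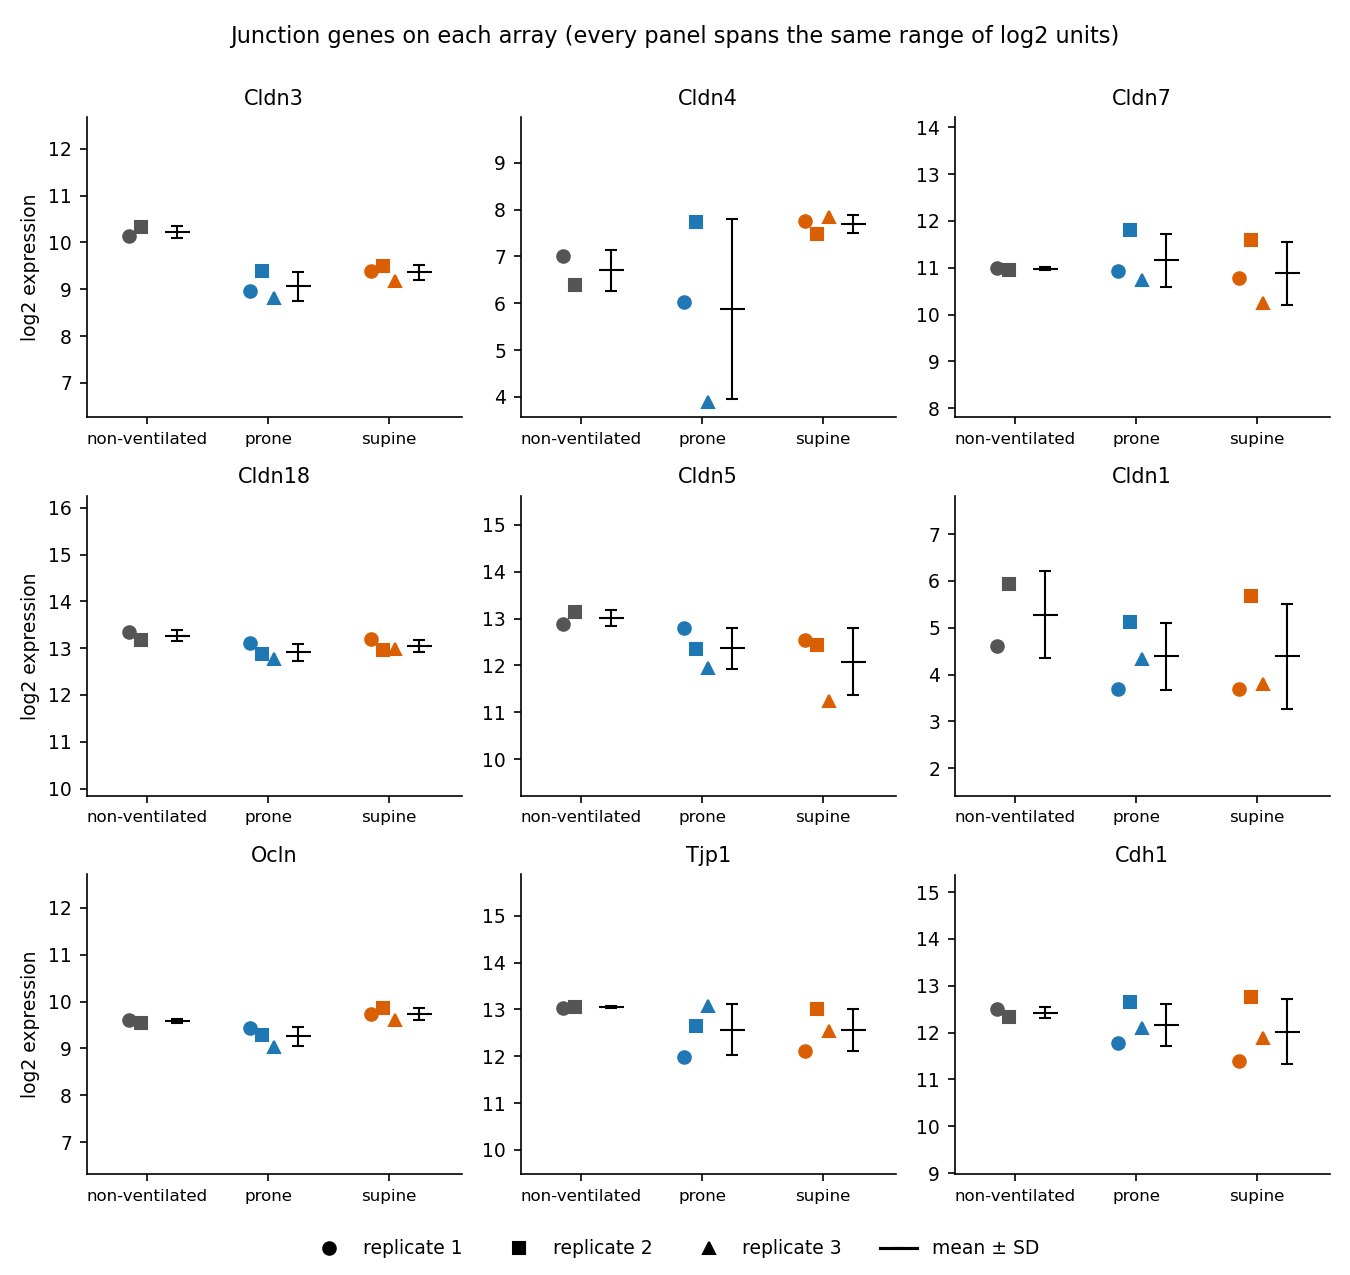
Log2 expression (vertical axes, each spanning the same number of log2 units) of the 9 genes on the 2 non-ventilated, 3 prone and 3 supine arrays. Points are arrays, with the marker giving the replicate number, and bars are the group mean ± SD. Cldn3 is lower on all 6 ventilated arrays than on both control arrays, Cldn4 ranges from 3.89 to 7.73 among the prone arrays, and most other genes overlap between groups.

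Cldn3 encodes a claudin of alveolar type 2 cells and other epithelia. It read 10.14 and 10.32 in the control lungs, 8.96, 9.40 and 8.82 in the prone lungs and 9.40, 9.50 and 9.18 in the supine lungs. Every ventilated lung thus lay below both controls. The group means were 10.23 ± 0.13 (SD, n = 2), 9.06 ± 0.30 (n = 3) and 9.36 ± 0.16 (n = 3). Prone lungs differed from controls by -1.17 ± 0.30 (limma, adjusted p = 0.131), a 2.25-fold lower level, and supine lungs by -0.87 ± 0.30 (adjusted p = 0.275), a 1.83-fold lower level. Across the 6 ventilated lungs the level was 2.03-fold lower (-1.02, 95% confidence interval -1.64 to -0.40, limma adjusted p = 0.129). An exact two-sided permutation test on the 28 splits of 6 against 2 arrays gave p = 0.0357, the smallest it can give. The test takes no account of the replicate numbers, and of the 13 probe sets it was run on, the 2 dimmer ones of Cldn18 gave the same p. In that split, 29.6% of all probe sets had arrays that did not overlap, and 16.7% did not overlap and were lower. A lack of overlap does not by itself give the smallest p, since Cldn5 did not overlap and its permutation test gave p = 0.107. The share of probe sets with the smallest permutation p was not computed. The supine and prone lungs differed by 0.30 (interval -0.32 to 0.92), which was within the spread between replicates.

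In bulk tissue, fewer cells of a type and less RNA per cell cannot be told apart. Of 9 general epithelial markers, all past the filter on low values, 7 were lower in ventilated lungs (median -0.19), and 0 passed in any comparison. Over all probe sets 56% were lower (median -0.10). 3 of the 9 were lower without overlap (16.7% of all probe sets) and 1 was higher without overlap (12.9%). The summed level of the 9 is the log2 of their summed linear values, so the brightest genes weigh most. It ranged from 15.11 to 15.18 in control, 14.88 to 15.24 in prone and 14.92 to 15.16 in supine lungs. Cldn3 minus this level was -5.04 and -4.79 in controls, -6.10, -5.84 and -6.06 in prone lungs and -5.56, -5.66 and -5.74 in supine lungs. This quantity was lower on every ventilated array than on both controls, by 0.91 log2 units on average. Against the summed level of 10 alveolar type 2 markers the average gap was smaller, at 0.73 log2 units: Cldn3 minus that level was -7.09 and -7.03 in controls, -8.20, -7.22 and -8.19 in prone lungs and -7.50, -7.73 and -7.88 in supine lungs. Prone replicate 2 lay near the controls there. All 10 type 2 markers were lower in ventilated lungs (median -0.32), 3 of them without overlap (16.7% of all probe sets), and 0 passed. The differences ran from -2.82 to -0.01, so some were close to none. In each position taken alone 9 were lower and 1 was higher (Sftpd by 0.04 in prone and Lpcat1 by 0.15 in supine lungs).

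Cldn4 lies beside Cldn3 on the same chromosome, with no protein-coding gene between them in RefSeq's GRCr8 annotation, and encodes a sealing claudin of alveolar epithelium. It did not share the Cldn3 pattern. Cldn4 read 7.01 and 6.39 in control lungs, 6.02, 7.73 and 3.89 in prone lungs and 7.75, 7.48 and 7.85 in supine lungs. The 3 supine lungs were alike and all above both controls, whereas the prone lungs lay on either side of them. Supine lungs differed from controls by 0.99 ± 0.95 (adjusted p = 0.619) and prone lungs by -0.82 ± 0.95 (adjusted p = 0.686). Supine against prone, Cldn4 stood at 1.82 ± 0.85 (adjusted p = 0.942, interval -0.17 to 3.80), the widest gap of the 9 genes in that comparison, but 1 prone lung (7.73) overlapped the supine ones. Prone replicates 2 and 3 weighed most on these values. Without replicate 3 the prone difference was 0.17 and the supine against prone difference 0.82, and without prone replicate 2 they were -1.75 and 2.74.

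Cldn7, a claudin found along the lateral walls of epithelial cells, did not differ by group. Its values were 11 and 10.96 in control lungs, 10.94, 11.80 and 10.73 in prone lungs and 10.79, 11.59 and 10.25 in supine lungs. Both ventilated groups spanned the controls. The differences from controls were 0.17 ± 0.48 in prone and -0.11 ± 0.48 in supine lungs (adjusted p = 0.883 and 0.92). The interval of the ventilated difference, -0.97 to 1.04, leaves room for a change of up to about the size seen for Cldn3.

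The promoters of Cldn3 and Cldn7 are shown because these claudins, with the largest and the smallest difference in ventilated lungs among the 9 genes, can be set side by side for the E-box letters CAGGTG, searched on both strands, a kind of site bound by Snail-family repressors of epithelial junction genes. The 250 bases before each RefSeq start are from GRCr8, 5′ to 3′ on the gene's strand, with these letters or their reverse complement in capitals. The Cldn3 window is chr12:27346548-27346797 on the minus strand, and the Cldn7 window is chr10:55188420-55188669 on the plus strand.
Cldn3: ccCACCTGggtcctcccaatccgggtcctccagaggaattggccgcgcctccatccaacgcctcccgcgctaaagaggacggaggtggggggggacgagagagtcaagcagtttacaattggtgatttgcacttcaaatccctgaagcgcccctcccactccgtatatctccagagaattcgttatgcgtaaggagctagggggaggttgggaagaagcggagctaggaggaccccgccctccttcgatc
Cldn7: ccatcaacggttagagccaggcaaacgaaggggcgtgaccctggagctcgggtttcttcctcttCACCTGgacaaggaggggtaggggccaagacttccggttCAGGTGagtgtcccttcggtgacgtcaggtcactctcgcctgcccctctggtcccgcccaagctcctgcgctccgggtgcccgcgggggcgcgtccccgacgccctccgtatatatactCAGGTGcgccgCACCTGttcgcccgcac
Cldn7 held the letters 4 times, starting 186, 147, 28 and 17 bases before the start, and Cldn3 held them once, 248 bases before it. Of 33469 RefSeq windows of this length, 15.9% held the letters at least once and 0.0299% at least 4 times. Windows were matched for 7 of the 9 genes, not for Cldn4 and Cdh1. Ocln held the letters at 2 places, and they are not in the windows of Cldn1, Cldn5, Cldn18 and Tjp1. The windows of Cldn1, Cldn3, Cldn5 and Cldn7 end at the edge of the annotated gene, and those of Cldn18, Ocln and Tjp1 do not. The match is of letters only.

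Cldn18 is the claudin of alveolar epithelium, most abundant in type 1 cells, and its 3 probe sets gave different sizes. The brightest read 13.35 and 13.18 in control, 13.11, 12.87 and 12.76 in prone and 13.19, 12.97 and 12.98 in supine lungs. On it the prone arrays lay just under the controls and the supine arrays overlapped them, with differences of -0.35 ± 0.27 and -0.22 ± 0.27 (adjusted p = 0.537 and 0.705). The second read 13.11 and 12.97 in control, 12.61, 12.34 and 12.47 in prone and 12.56, 12.69 and 11.96 in supine lungs. The dimmest of them read 12.43 and 12.29 in control, 11.62, 10.73 and 11.18 in prone and 11.68, 11.37 and 11.24 in supine lungs. On both of these every ventilated array was below both controls. The lowest reading of the second, 11.96, was on the degraded supine replicate 3. Across the 6 ventilated lungs the differences were -0.28 ± 0.24, -0.60 ± 0.28 and -1.06 ± 0.31 from the brightest to the dimmest probe set (adjusted p = 0.541, 0.288 and 0.146). The 3 probe sets thus gave the same sign and sizes from 1.22-fold to 2.08-fold lower, and none of them passed.

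**Figure D2:**
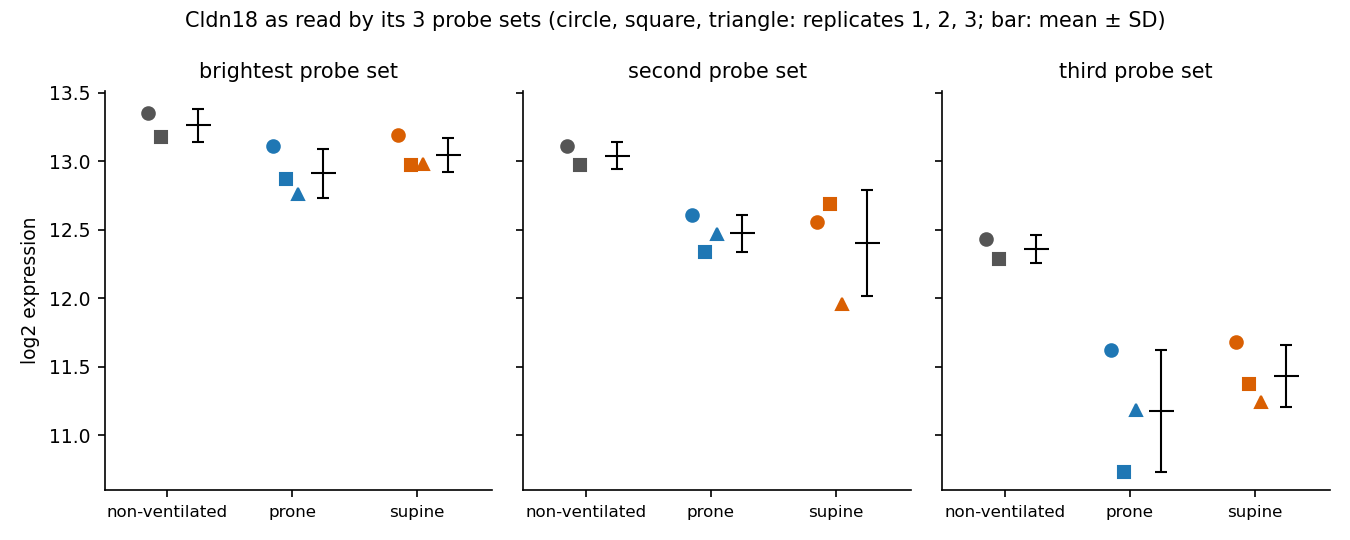
Log2 expression of Cldn18 (vertical axis, shared) on its 3 probe sets, from the brightest on the left to the dimmest on the right, in the 2 non-ventilated, 3 prone and 3 supine lungs. Points are arrays and bars the mean ± SD. The gap between controls and ventilated lungs widens from -0.28 on the brightest to -1.06 on the dimmest probe set.

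Most markers of the alveolar type 1 list were lower beside Cldn18. Its 8 markers on the array, all past the filter, had a summed level of 16.49 to 16.56 in control, 15.76 to 16.10 in prone and 15.80 to 16.16 in supine lungs, so ventilated lungs did not overlap controls. Of these 8, 7 were lower in ventilated lungs with arrays that did not overlap (16.7% of all probe sets), and 0 passed. The remaining marker, Pdpn, was higher without overlap (12.9% of all probe sets), at 0.60 ± 0.31 (limma, adjusted p = 0.334). The brightest Cldn18 probe set minus this level was -3.26 ± 0.07 (SD, n = 2) in control, -3.04 ± 0.17 (n = 3) in prone and -2.95 ± 0.21 (n = 3) in supine lungs. That holds for the brightest probe set only, which had the smallest difference in ventilated lungs (-0.28). The second and the dimmest, at -0.60 and -1.06, were not set against this level. The alveolar type 2 list of 10 ranged from 17.23 to 17.35, 16.62 to 17.16 and 16.90 to 17.23 in the same order. The part of these lists in the Cldn18 and Cldn3 values was not tested.

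Cldn1, a claudin of many epithelia, was near the low end of the scale. Its brighter probe set read 4.62 and 5.94 in control, 3.70, 5.13 and 4.34 in prone and 3.70, 5.68 and 3.79 in supine lungs. It passed the filter, which asks for log2 5 on at least 2 arrays, through the second replicate of each group. The difference from controls was -0.89 ± 0.74 in both positions (adjusted p = 0.57 in prone and 0.568 in supine lungs), smaller than the gap between the 2 control arrays. Its other probe set stayed under the filter, between 3.91 and 4.86, and was not tested.

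Cldn5, which closes the endothelial junctions of lung vessels, read 12.89 and 13.13 in control lungs, 12.80, 12.35 and 11.94 in prone lungs and 12.55, 12.44 and 11.25 in supine lungs. All 6 ventilated lungs were below both controls, prone replicate 1 only just. The differences were -0.65 ± 0.47 in prone (adjusted p = 0.515) and -0.93 ± 0.47 in supine lungs (adjusted p = 0.381). The supine value leaned on the array with degraded RNA, replicate 3, which held the lowest reading. Without it the supine difference was -0.51 and the supine against prone difference changed sign, from -0.28 to 0.13. The exact permutation test for 6 against 2 arrays gave p = 0.107.

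Endothelial markers were lower beside Cldn5. All 12 on the array had differences below 0 in both positions, as did 56.5% of all probe sets in prone and 53.8% in supine lungs. Medians of the 12 were -0.62 in prone and -0.52 in supine lungs, against -0.12 and -0.07 over all probe sets. In ventilated lungs 3 of the 12 were lower without overlap (16.7% of all probe sets), and 0 passed. The summed level of the 12 was 16.20 to 16.25 in control, 15.17 to 16.09 in prone and 15.50 to 16.07 in supine lungs. Cldn5 minus this level was -3.22 ± 0.14 (SD, n = 2) in control, -3.31 ± 0.89 (n = 3) in prone and -3.61 ± 0.65 (n = 3) in supine lungs, so relative to the markers the 3 groups overlapped. The list's part in the Cldn5 values was not tested.

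Ocln, the strand protein occludin, varied little within each group. It read 9.61 and 9.55 in control lungs, 9.44, 9.29 and 9.04 in prone lungs and 9.73, 9.86 and 9.60 in supine lungs. Prone lungs lay below both controls and supine lungs overlapped them. In supine against prone lungs every supine array was above every prone array, with a difference of 0.47 ± 0.24 (adjusted p = 0.942, interval -0.09 to 1.04). It was the only one of the 9 genes whose supine and prone arrays did not overlap, in a comparison where 5.89% of all probe sets did not overlap and 3.78% did not overlap and were higher in supine lungs. A second Ocln probe set, between 2.74 and 4.43, was under the filter and was not tested.

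Tjp1, the gene of the scaffold protein ZO-1, read 13.03 and 13.06 in control lungs, 11.99, 12.64 and 13.07 in prone lungs and 12.12, 13.02 and 12.53 in supine lungs. All 3 supine lungs and 2 of the 3 prone lungs were under both controls, while prone replicate 3 stood level with them. The differences were -0.48 ± 0.41 and -0.49 ± 0.41 (adjusted p = 0.58 and 0.571). Without prone replicate 1 the prone difference was -0.20, and without supine replicate 1 the supine one was -0.27.

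Cdh1, the gene of E-cadherin, read 12.51 and 12.34 in control lungs, 11.77, 12.65 and 12.09 in prone lungs and 11.40, 12.77 and 11.88 in supine lungs. Ventilated lungs lay on both sides of the controls. The differences were -0.25 ± 0.46 in prone and -0.41 ± 0.46 in supine lungs (adjusted p = 0.813 and 0.673). The spread was wide on the ventilated side, with an SD of 0.70 in supine lungs against 0.12 in controls.

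**Figure D3:**
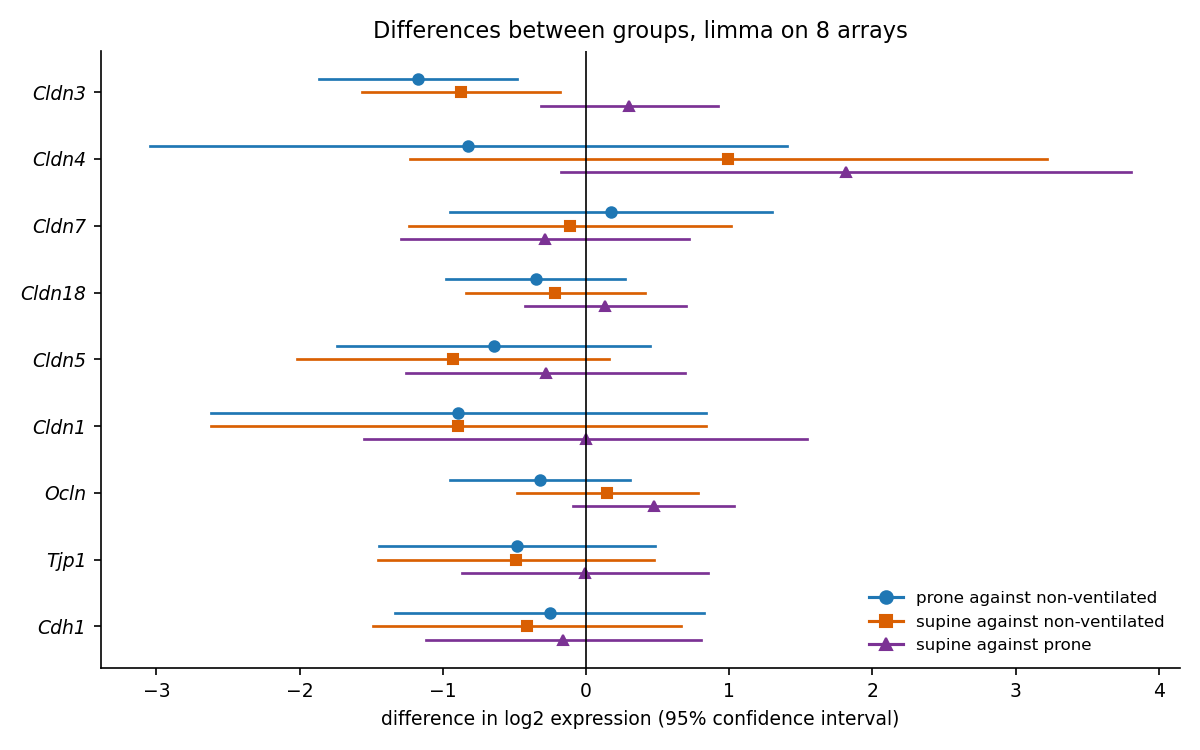
Differences in log2 expression (horizontal axis) for the 9 genes for each position set against the controls and for supine set against prone, with bars for the 95% confidence interval of the limma model on 8 arrays. Before adjustment the intervals of Cldn3 against controls exclude 0 (-1.86 to -0.48 in prone and -1.56 to -0.18 in supine lungs), and the other intervals include 0. Each gene is drawn by its brightest probe set. The intervals of the dimmest Cldn18 probe set, not drawn, also exclude 0 (-1.98 to -0.39 in prone and -1.72 to -0.13 in supine lungs).

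Cldn7 and Tjp1 were close in the control lungs (SD 0.03 and 0.02, n = 2) and more spread in the ventilated lungs (SD 0.45 to 0.67). Closer controls were not particular to these genes. The fit with array weights, which rates each array by its spread over all probe sets, gave both controls 4.67 and the ventilated arrays 0.28 to 1.81. An SD of 2 arrays is also poorly determined. For 5 of the 9 genes (Cldn1, Cldn3, Cldn5, Cldn7 and Cdh1) the 3 arrays, taken by the replicate number in the titles, stood in the same order in prone and in supine lungs, as did 29.4% of all probe sets. Replicate 2 was the highest in both positions for Cldn1, which is near the low end of the scale, and for Cldn3, Cldn7 and Cdh1. The share of all probe sets with the same number highest in both positions is not given here. Averaged over position, Cdh1 was 11.59, 12.71 and 11.99 for numbers 1, 2 and 3, a range of 1.13, against a mean difference of -0.16 between supine and prone. Cldn7 had a range of 1.21 against -0.28, and Cldn1 a range of 1.71 against 0.00. A range over 3 means of 2 arrays tends to exceed a difference between 2 means of 3 arrays whatever the numbers stand for, so these pairs of values are a description only.

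**Figure D4:**
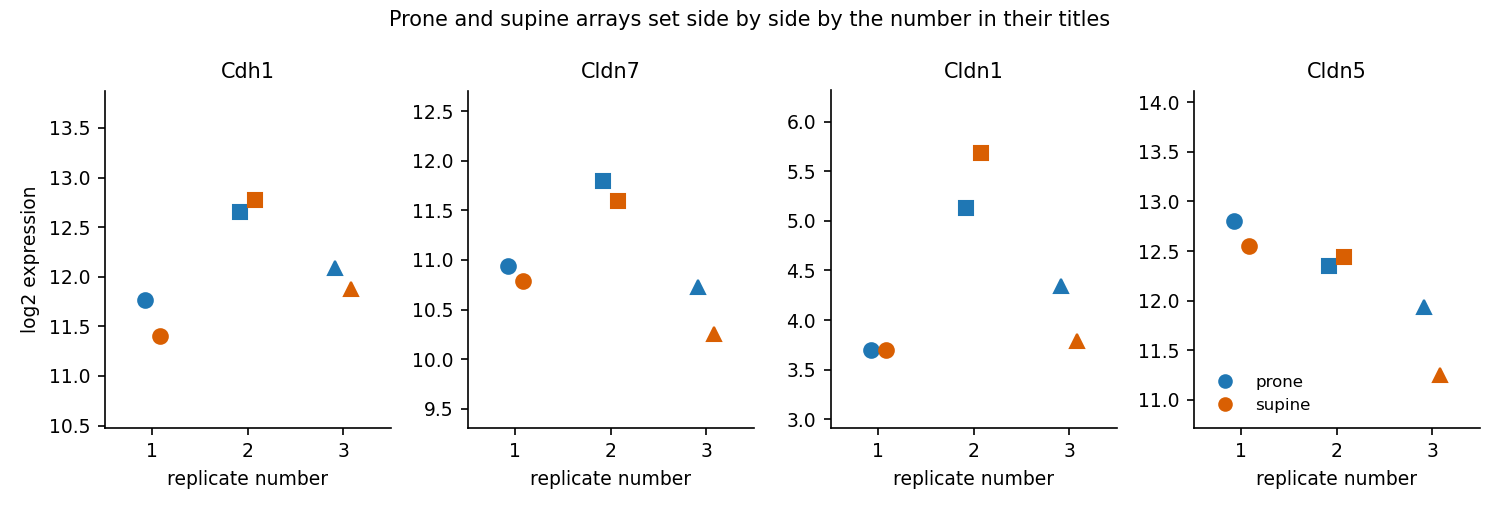
Log2 expression (vertical axes) of Cdh1, Cldn7, Cldn1 and Cldn5 in prone and supine lungs, set side by side by the replicate number in the titles (horizontal axis). For Cdh1, Cldn7 and Cldn1 the arrays numbered 2 are the highest in both positions, and for Cldn5 the arrays numbered 3 are the lowest (11.94 and 11.25).

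Marker lists also moved with the numbers. The 8 neutrophil markers on the array had summed levels of 17.05 and 16.87 on the ventilated arrays numbered 1, against 15.03 to 15.57 on the other ventilated arrays and 13.71 to 13.81 in controls. The 5 airway epithelial markers on the array were highest on the arrays numbered 2, at 16.30 in prone and 15.83 in supine lungs, against 15.38 to 15.75 on the other ventilated arrays. What part these lists had in the values of Cdh1, Cldn7 and Cldn1 was not tested.

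The genes with the most similar profile were sought for the 3 members that varied most, among 10239 other tested genes, as the root mean square difference of values centred on their own mean over the 8 arrays. Nearest to Cldn4 was Fam227a (0.38 log2 units), then Ckmt1 (0.73) and Igsf8 (0.74). Fam227a read 6.59 and 6.12 in control, 5.24, 7.60 and 3.75 in prone and 8.15, 7.60 and 8.28 in supine lungs, following the low prone replicate 3 as Cldn4 did. Nearest to Cldn1 were Bcorl1 (0.37), Sybu (0.37) and Ipp (0.39), and nearest to Cldn5 were Dnajc14 (0.13), Atp6v1g1 (0.15) and Ginm1 (0.15). The last 3 genes were each lowest on the degraded supine replicate 3, as Cldn5 was.

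Other junction genes included larger differences than any of the 9 genes showed. Of 66 other junction genes and junction-related transcription factors on the array, 64 passed the filter, and 44 of these were lower in the 6 ventilated lungs, where 56% of all probe sets were lower. In 22 the ventilated arrays lay below both controls without overlap, and in 5 above them, against 16.7% and 12.9% of all probe sets. Of the 64, 1 passed, where 0.142% of all probe sets did. Centring the arrays on their medians left 40 of the 64 lower and 0 past the threshold. It moved the median over all probe sets from -0.10 to 0.01 in this comparison and from -0.12 to 0.03 in the prone one. With centred arrays 18 of 16896 probe sets passed here, and the share of them that was lower was not computed.

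Cdh3, the gene of P-cadherin, a close relative of E-cadherin, was the one that passed. It read 8.43 and 8.52 in control lungs, 6.63, 6.40 and 6.31 in prone lungs and 6.60, 6.38 and 6.41 in supine lungs. Cdh3 fell by 2.02 ± 0.24 in ventilated lungs (limma, adjusted p = 0.039), to about the same level in each. Taken separately, prone lungs differed by -2.02 (adjusted p = 0.0629) and supine lungs by -2.01 (adjusted p = 0.0808). The size held between -2.06 and -1.91 in the 17 alternatives run, but the call was lost in 10 of them, with adjusted p from 0.00138 to 0.757. Blocking on the replicate number ended it (adjusted p = 0.0928), as did a filter at log2 7 (0.0591), centred arrays (0.0515) and an intensity trend (0.0688). The call was also lost without control replicate 1 (0.757) or 2 (0.749), prone replicate 2 (0.103) or 3 (0.13), or supine replicate 1 (0.0738) or 3 (0.0583). Of the other 15 adherens junction genes tested none passed. The largest difference among those without overlap was in p120-catenin (Ctnnd1), which stabilises cadherins at the membrane and stood at -1.07 ± 0.47 (adjusted p = 0.271), with its lowest reading, 6.98, on the degraded supine replicate 3.

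Among other tight junction genes 28 of the 43 listed were on the array and 26 were tested. 22 were lower in ventilated lungs (median -0.66), and 14 did not overlap and were lower. Over all probe sets 56% were lower (median -0.10), and 16.7% did not overlap and were lower. At an unadjusted p under 0.05 there were 9 lower and 1 higher, where 10.6% and 8.53% of all probe sets were, and 0 passed after adjustment. The largest differences among genes without overlap were in Cldn11, which forms strands known from myelin and testis (-2.04 ± 0.51, adjusted p = 0.12), and Cldn8 (-2.00 ± 0.69, adjusted p = 0.19). Cldn11 read 9.88 and 10.09 in control lungs, 7.53, 7.22 and 7.36 in prone lungs and 7.36, 9.47 and 8.75 in supine lungs, so the prone lungs were uniform and the supine lungs were not. The largest positive difference was in Ybx3 (ZONAB), a transcription factor that binds ZO-1 (0.58 ± 0.24, adjusted p = 0.247).

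Cingulin genes, named after their values were seen, belong to the cytoplasmic plaque that links tight junctions to actin and microtubules. Cgn read 8.40 and 8.34 in control, 6.29, 6.59 and 6.34 in prone and 6.24, 7.65 and 6.11 in supine lungs. Its difference in ventilated lungs was -1.84 ± 0.43 (adjusted p = 0.111). Cgnl1, its paralog, read 11.73 and 11.62 in control, 9.97, 10.81 and 10.66 in prone and 9.76, 10.37 and 10.04 in supine lungs, a difference of -1.41 ± 0.32 (adjusted p = 0.107). Both were lower on every ventilated array than on both controls, in contrast to the scaffold gene Tjp1, whose prone replicate 3 stood level with its controls.

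Desmosomes, the spot-like junctions anchored to keratin, had 6 of 8 tested genes lower in ventilated lungs (56% of all probe sets) and 0 past the threshold. 3 of the 8 did not overlap and were lower (16.7% of all probe sets). Dsg2, a desmosomal cadherin, stood at -1.23 ± 0.27 (adjusted p = 0.105) and Perp at -1.38 ± 0.47 (adjusted p = 0.189), both without overlap. Perp had its lowest reading, 9.64, on the degraded supine replicate 3, and without that array its difference was -1.13. Gap junction genes, which form channels between cells, had 4 of 7 lower, near the share of all probe sets (56%), and none without overlap in the ventilated comparison. Of 7 transcription factors 2 were lower (56% of all probe sets), 5 were higher and 0 passed. Without overlap, 4 of the 7 were higher (12.9% of all probe sets). Elf3, an epithelial factor induced by inflammatory signals, stood at 1.46 ± 0.45 (adjusted p = 0.161) and Grhl1 at 0.86 ± 0.39 (adjusted p = 0.277), both above controls on all 6 ventilated arrays. The repressor Snai1, named after its values were seen, read 7.95 and 8.20 in control, 7.79, 4.74 and 3.94 in prone and 8.49, 7.77 and 7.17 in supine lungs, and its supine against prone difference was 2.32 ± 0.93 (adjusted p = 0.942).

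**Figure D5:**
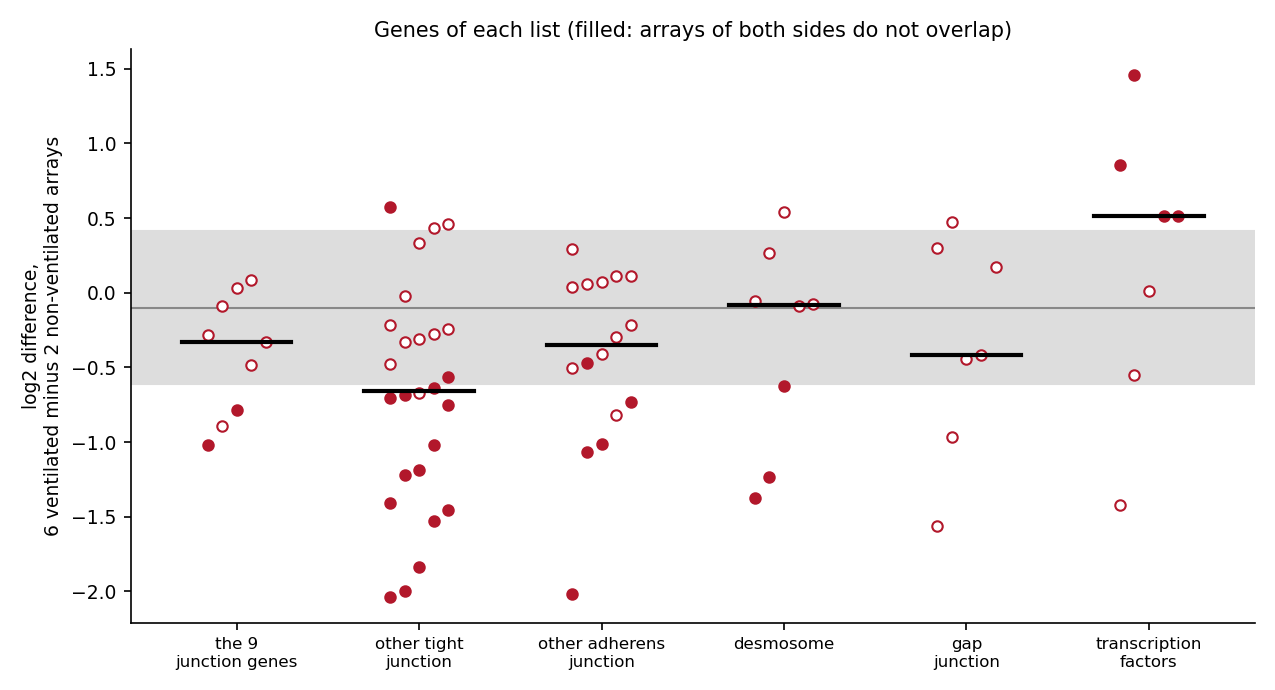
Difference in log2 expression between the 6 ventilated and 2 non-ventilated arrays (vertical axis) for each tested gene of the 9 junction genes and of the 5 other lists. Filled points are genes whose ventilated and control arrays do not overlap, black bars are list medians, and the grey line and band are the median (-0.10) and interquartile range (-0.61 to 0.41) over all tested probe sets. The other tight junction list has the lowest median (-0.66) and Cdh3 the lowest point of the adherens list.

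Mesothelial markers, genes of the cells covering the lung surface, moved with these lists: their summed level over 6 genes on the array was 13.03 to 13.09 in control, 10.07 to 11.50 in prone and 9.34 to 9.86 in supine lungs, and 2 of the 6 passed in the ventilated comparison (0.142% of all probe sets), neither of them with the replicate block. The 9 lymphocyte markers on the array were all lower in ventilated lungs (median -2.23, 0 passed), where 56% of all probe sets were lower (median -0.10). 3 of the 9 did not overlap (16.7% of all probe sets were lower without overlap). The summed levels of the 9 were 11.47 to 12.77 in control, 8.79 to 10.76 in prone and 10.14 to 11.82 in supine lungs. Of 5 macrophage markers 4 were lower (median -0.22), 0 without overlap, and 0 passed. The part of these lists in the junction differences was not tested.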

How the data were processed

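Biotin-labelled targets made from 300 ng of total RNA per sample were hybridised to 1-colour Affymetrix rat arrays. The deposited values are GCRMA summaries on the log2 scale (1.01 to 15.72), and the submitters' processing notes also name Partek 6.5. No label or header states filters, further scaling or detection calls, so low values and background cannot be told apart. The number of arrays limits the precision.

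28 control probe sets were set aside. Of the other 20214, those reaching log2 5 on 2 or more arrays (16896) were tested with limma 3.58.1 in R 4.3.3 (1 mean per group, all 8 arrays, 5 residual and 2.51 prior degrees of freedom, two-sided, Benjamini-Hochberg within each of 4 comparisons). The fit was tested on simulated data. The probe set with the highest mean stood for a gene. Symbols are those of the platform annotation held by GEO, and all 13 probe sets of the 9 genes matched RefSeq by gene identifier.

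The members, gene lists, and tests were chosen with earlier results of these data known. Named from other junction lists are genes that passed in any comparison and the 2 largest positive and negative differences in ventilated lungs among genes without overlap. Cell type lists were used whole.

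Same-numbered arrays deviated together from their group means over all tested probe sets (correlations of 0.72, 0.29 and 0.20 for the 3 prone and supine pairs, and 0.11 to 0.33 with the controls), which meets the rule used here for numbers that pair samples. Prone and supine arrays with different numbers ranged from -0.59 to 0.40. The value of 0.40 was between prone replicate 3 and supine replicate 2, and of the same-numbered prone and supine pairs only number 1 exceeded it. Controls and ventilated arrays with different numbers ranged from -0.33 to 0.21. The 0.21 was between control replicate 2 and prone replicate 3, above the 0.11 of control replicate 2 with prone replicate 2. The deviations of the 2 controls are equal and opposite, so the values with the controls are not independent of each other. The printed p-values, intervals and permutation tests are nevertheless from the fit without a block, and the blocked fit is an alternative. The replicate block, other filters, scalings, variance models, array weights, the mean of probe sets, only the groups compared and leaving out each array were run as alternatives.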

Additional observations from a re-analysis of the deposited data

How the results depend on the processing

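The alternatives gave 635 values for the 9 genes, and 604 kept their direction and side of the threshold. With array weights Cldn3 and Cldn5 passed in prone (2 genes) and in ventilated lungs (2 genes), in a fit that gave the 2 control arrays the highest weights and in which 5724 probe sets passed in prone and 4704 in ventilated lungs. The other alternatives called none of the 9 genes in any comparison. Over all probe sets the count of 9 in prone lungs was 35 without a filter, 0 at log2 7 and 0 with the replicate block, and the count of 24 in ventilated lungs was 118, 5 and 0. Of the other junction genes 64 were tested in most settings, 66 without a filter and 56 at log2 7. In prone lungs their count past the threshold was 1 without a filter, 26 with array weights and 3 with only the groups compared. Over all probe sets these counts were 35 of 20214, 5724 of 16896 and 139 of 16400. Leaving out a ventilated array gave 0 to 2 junction genes and 0 to 119 probe sets. In supine lungs the junction gene count was 1 with array weights and 0 to 2 when leaving out a ventilated array. Over all probe sets it was 36 and 0 to 154. In ventilated lungs the junction gene count was 0 at log2 7, with centred arrays, with an intensity trend and with the replicate block. Over all probe sets it was 5, 18, 11 and 0 in the same order. With array weights 25 junction genes passed, beside 4704 of 16896 probe sets. Leaving out a ventilated array gave 0 to 3 junction genes and 0 to 385 probe sets. With the replicate block no probe set on the array passed in any comparison, so each call made without it was lost, including Cdh3 and both mesothelial markers.

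All 27 changes of sign among the 9 genes were in differences that did not pass (smallest adjusted p = 0.615), 16 of them in supine against prone lungs. Ocln in supine lungs was -0.36 with the mean of its probe sets, which includes one under the filter, and Cldn7 there was 0.15 with the replicate block. Ocln in ventilated lungs was 0.023 with centred arrays and 0.001 with the replicate block. In supine against prone lungs Cldn1 was -0.071 with centred arrays, -0.09 after repeated quantile normalization and -0.22 with array weights, and Tjp1 was 0.057 after repeated quantile normalization. Leaving out an array, Cldn4 ranged from -1.75 to 0.17 in prone and from -0.38 to 0.58 in ventilated lungs, and Cldn7 from -0.15 to 0.39 in prone, -0.47 to 0.20 in supine and -0.15 to 0.19 in ventilated lungs. In supine against prone lungs the ranges were -0.65 to 0.37 for Cldn1, -0.52 to 0.13 for Cldn5, -0.64 to 0.04 for Cldn7, -0.30 to 0.24 for Tjp1 and -0.54 to 0.15 for Cdh1. Without 1 control array the other is assumed to vary like the remaining groups. The cause of these changes was not tested. Signal near the low end limits Cldn1, which the filter at log2 7 left out.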
